A study of Mus musculus with 77 samples.

Results

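How the effect of oxygen on the retina changed between postnatal day 12 (P12) and P17 was examined on 50 of the 77 retina arrays of the series. The arrays were chosen by their labels. They came from 13 mice with oxygen-induced retinopathy (OIR) and 12 control mice on P12 and from 13 OIR and 12 control mice on P17. All mice were C57BL/6. From P7 the litters of OIR mice were kept in hyperoxia (75% oxygen), while the litters of control mice stayed in normoxia (21% oxygen). By the study's methods hyperoxia ended on P12, so the P12 retinas were taken at the end of it and the P17 retinas after a period in room air. Each array held RNA from both pooled retinas of 1 mouse and universal mouse reference RNA in the other color, and no mouse was measured on more than 1 array. The litter of a mouse is not in the labels. By the study's methods whole litters were assigned to an oxygen condition. Its litter counts show that mice of one condition shared litters across the days, and that each OIR group held more mice than litters. The values treat the mice as independent, so the standard errors and p-values do not account for the litter.

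The model is used for its phases. High oxygen stops the growth of retinal vessels and removes the young capillaries of the central retina. After the return to room air the retina without capillaries becomes hypoxic, and vessels grow back, partly as tufts that leave the retina. Vascular endothelial growth factor is produced by hypoxic retina and is the main signal for this growth, and Mueller glia, which span the retina, react to the injury. In RNA of the whole retina, fewer cells of a type and less RNA per cell cannot be told apart.

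The OIR effect of a day is the mean log2 ratio of the OIR mice minus that of the control mice of that day. The change in the OIR effect is the effect on P17 minus that on P12. All log2 ratios are given as retina over reference, after background correction with an offset of 50, which keeps differences of dim probes small. The labels name Cy5 for the retina, but on every array Cy3 was the brighter color for *Sag*, *Gnat1* and *Pde6b*, which rods express, by 4.18 or more on the log2 scale. The ratios in the deposited table also run from Cy3 to Cy5. The direction in the labels was therefore not followed. The level of a gene was taken from its brightest probe, and levels of different genes are not compared. A difference was called when its adjusted p was below 0.05 (limma, Benjamini-Hochberg over 55681 probes).

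The OIR effect differed between the days in both directions. It was higher on P17 for 222 probes (0.399% of those tested) and lower for 14 (0.0251%). With 1 probe per gene, 198 of 21154 genes were called, 186 of them higher (0.879%) and 12 lower (0.0567%). The study does not name 90.4% of these genes. Of 43 measured genes that it names for the retina, 19 were called, 18 of them higher and 1 lower. The median change over all genes was -0.004. Of the called probes, 170 were well above background on all 50 arrays and 5 on none. On P12 alone only 7 probes were called between OIR and control mice (0.0126%), and on P17 alone 620 (1.11%).

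The called probes fell into distinct patterns. The effect had opposite signs and was called on both days for 6 probes, with a median of -0.71 on P12 and 1.38 on P17. A further 58 probes had opposite signs with unadjusted p-values below 0.05 on both days, without a call on at least 1 of them. The medians here were -0.22 on P12 and 0.47 on P17. For 168 probes the effect was called on P17 with an unadjusted p of 0.05 or more on P12, 156 of them higher and 12 lower on P17. A missed p on P12 does not show that there was no effect. The 95% confidence limit of the P12 effect was taken in the direction of the P17 effect. It stayed below 50% of the P17 effect for all 168 probes and below 25% for 118. A called change with a missed p on P12 nearly fixes this, so it is no further evidence of a start on P17. P12 effects in the opposite direction were not bounded in this way. The median size of the effect was 0.08 on P12 and 0.66 on P17. The remaining 4 genes were named after their values were seen. *Ramp2*, *Apod* and *Ushbp1* had an unadjusted p below 0.05 on P12 and of 0.05 or more on P17. *Col5a3* had an unadjusted p below 0.05 and the same direction on both days. Of these 4 genes only *Apod* was called on P12, and only *Col5a3* on P17.

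**Figure D1:**
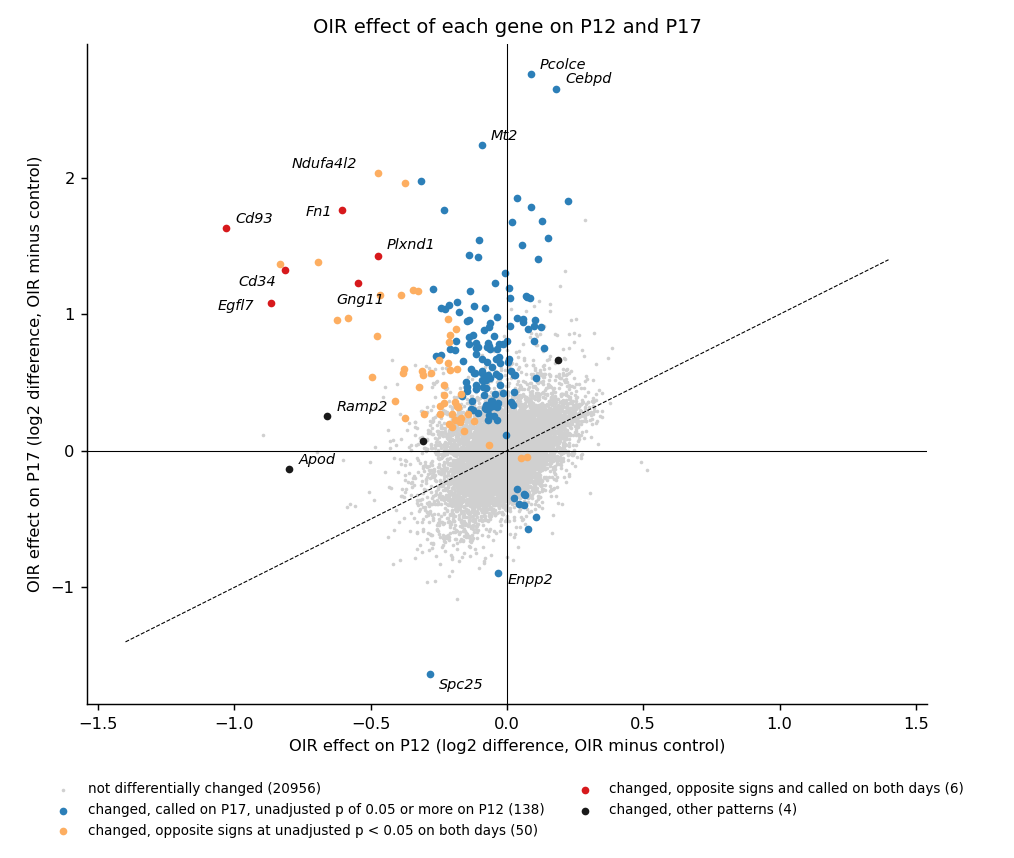
Each point is 1 of 21154 genes, with the OIR effect on P12 on the horizontal axis and on P17 on the vertical axis, both as log2 differences of OIR minus control mice. Points on the dashed line have the same effect on both days. The 6 genes called on both days with opposite signs lie in the upper left, and the genes with an effect called on P17 alone lie close to the vertical axis.

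The change can lie in the OIR mice, in the control mice or in both. Between P12 and P17, 1654 of all probes changed in OIR mice (2.97%) and 645 in control mice (1.16%). Of the 222 probes with a higher effect on P17, 206 rose in OIR mice from P12 to P17, and 28 changed in control mice, 14 of which fell. Of the 14 probes with a lower effect on P17, 7 fell in OIR mice and 6 rose in control mice. These contrasts share their arrays with the change in the OIR effect and are given as a description.

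All 6 genes that were called in opposite directions were lower in OIR mice on P12 and higher on P17. *Cd93*, *Cd34* and *Egfl7* are expressed by endothelial cells, as a surface receptor, a surface sialomucin and a secreted factor of the vessel wall. *Plxnd1* encodes the endothelial receptor for semaphorin 3E, *Fn1* fibronectin of the extracellular matrix, and *Gng11* a G protein subunit. The change in the effect was 2.66 for *Cd93*, 2.37 for *Fn1*, 2.14 for *Cd34*, 1.95 for *Egfl7*, 1.90 for *Plxnd1* and 1.78 for *Gng11*, with adjusted p-values between 6.75e-18 and 1.94e-13. All of these values were positive on each of the 6 slides that held all 4 groups.

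On P12 *Cd93* lay between 0.24 and 1.34 in OIR mice, with a median of 0.79, and between 1.34 and 2.53 in control mice, with a median of 1.84. On P17 it lay between 2.57 and 3.53 in OIR mice (median 3.07) and between 0.72 and 2.07 in control mice (median 1.39). On P12, 12 of 13 OIR mice were below all control mice, and on P17 all 13 were above them. The OIR effect was -1.03 (SE 0.145) on P12 and 1.63 (SE 0.145) on P17, with adjusted p-values of 5.44e-05 and 1.01e-11. In OIR mice *Cd93* rose by 2.24 between the days (adjusted p = 5.55e-17), and in control mice the difference was -0.42 (adjusted p = 0.238).

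*Egfl7* was the gene with the clearest separation on P12. Its ratio was 0 to 0.83 in OIR mice (median 0.31) and 0.88 to 1.66 in control mice (median 1.21), and on P17 it was 1.69 to 2.55 (median 2.15) and 0.71 to 1.43 (median 0.95). The groups did not overlap on either day. The effect of -0.86 (SE 0.0947) on P12 had an adjusted p of 2.82e-07, and that of 1.09 (SE 0.0947) on P17 one of 7.54e-12. *Cd34* behaved alike, with -3.30 to -2.09 in OIR mice (median -2.57) and -2.12 to -1.37 in control mice (median -1.85) on P12, and -1.31 to -0.30 (median -0.76) and -2.62 to -1.65 (median -2.09) on P17. Here 12 of 13 OIR mice were below all control mice on P12, and all 13 were above them on P17. A second probe for *Cd34* had the same sign but was not called, and the same was true of a second probe for *Plxnd1*.

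For *Fn1* and *Plxnd1* the rise on P17 was larger than the deficit on P12. *Fn1* lay between -4.97 and -4.25 in OIR mice (median -4.64) and between -4.30 and -3.71 in control mice (median -4.02) on P12, and between -3.10 and -1.74 (median -2.50) and between -4.68 and -3.61 (median -4.31) on P17. Its effect was -0.61 (SE 0.113, adjusted p = 0.0207) and then 1.76 (SE 0.113, adjusted p = 2.62e-16). *Plxnd1* lay between -1.56 and -0.90 (median -1.29) and between -1.08 and -0.20 (median -0.86) on P12. On P17 it lay between -0.20 and 0.94 in OIR mice (median 0.35) and between -1.51 and -0.80 in control mice (median -1.13). Of the OIR mice, 11 of 13 were below all control mice on P12 for both genes, and all were above them on P17. The P12 effect of *Plxnd1*, -0.47, was the closest to the threshold (adjusted p = 0.0397).

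*Gng11* was not in any of the gene lists below. Its ratio was -1.26 to -0.58 in OIR mice (median -0.86) and -0.60 to -0.17 in control mice (median -0.35) on P12, and 0.30 to 1.19 (median 0.71) and -0.77 to -0.31 (median -0.52) on P17. The groups overlapped by 1 OIR mouse on P12 and not at all on P17. It had the smallest standard error of the 6 genes and the lowest adjusted p for the change (1.78, SE 0.102).

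**Figure D2:**
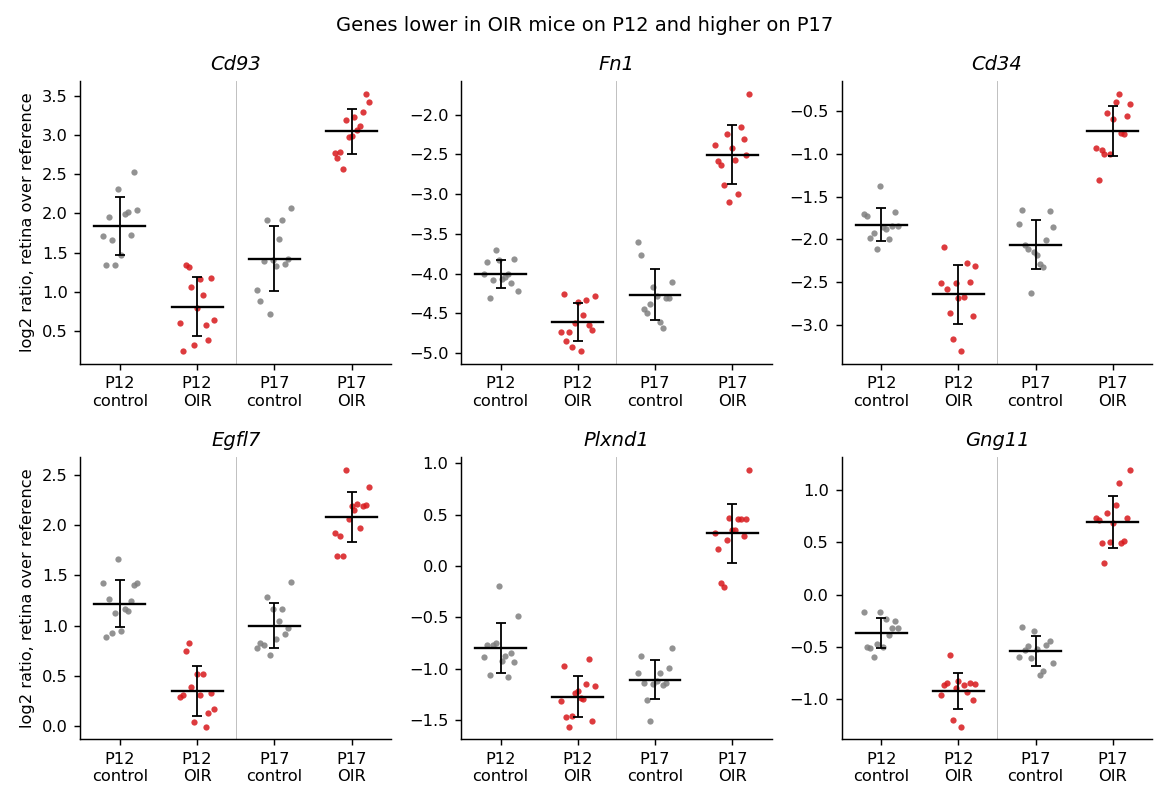
Each point is 1 mouse, with the log2 ratio of retina over reference on the vertical axis, lines for the group means and bars for the SD (12 control and 13 OIR mice per day). In all 6 panels the mean of the OIR mice is below that of the control mice on P12, with 11 to 13 of the 13 OIR mice below all control mice, and all 13 OIR mice are above them on P17, while the control mice of both days overlap.

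The gene lists sort genes by function. They were chosen with earlier results of these data known, so their counts are a description. Over all genes 0.879% were called higher on P17 and 0.0567% lower. Of 25 genes of the endothelial cell surface and junctions, among them *Cd93*, *Cd34* and *Egfl7* from above, 10 were called and all of them were higher on P17. The median effect over the list was -0.22 on P12 and 0.25 on P17, against -0.002 on each day over all genes, and 23 of the 25 had a negative effect on P12. The mean ratio of the list per array was 0 to 0.25 in OIR mice (median 0.10) and 0.24 to 0.77 in control mice (median 0.39) on P12, and 0.51 to 1.24 (median 0.78) and 0.14 to 0.74 (median 0.39) on P17. The list was thus lower in OIR mice on P12 and higher on P17, with little overlap on P12 and some on P17. Beside *Cd93*, *Cd34* and *Egfl7*, the called members were *Vwf*, *Robo4*, *Icam2*, *Eng*, *Cdh5*, *Ecscr* and *Ramp2*. *Vwf*, the clotting factor stored in endothelial cells, had an effect of -0.59 on P12 (adjusted p = 0.0931) and 0.97 on P17 (adjusted p = 2.70e-07).

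Some endothelial genes had no effect called on P17 or no change called. *Ramp2*, the subunit that makes the calcitonin receptor-like receptor respond to adrenomedullin, had an effect of -0.66 on P12 and 0.25 on P17 (adjusted p = 0.0699 and 0.514), with a change of 0.91 (SE 0.191). *Cldn5*, the main claudin of the vascular barrier, had -0.90 on P12 and 0.11 on P17, but its change of 1.01 was not called (SE 0.361, adjusted p = 0.562). The receptors of vascular endothelial growth factor, *Kdr* and *Flt1*, were not called either, with changes of 0.48 and 0.17. Of the 15 genes of the blood-retina barrier and norrin signaling none was called, with a median change of 0.08. Both receptors, *Cldn5* and *Ramp2* were singled out after their values were seen.

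*Apod*, which encodes apolipoprotein D and was also singled out, was the only gene that was called on P12 and differed in its effect between the days without an effect called on P17. On P12 it lay between 0.05 and 0.84 in OIR mice (median 0.44) and between 0.86 and 1.79 in control mice (median 1.28). On P17 it lay between 0.28 and 0.96 (median 0.77) and between 0.46 and 1.25 (median 0.97). The groups were apart on P12 and overlapped on P17. The effect went from -0.80 (adjusted p = 4.01e-07) to -0.13 (adjusted p = 0.609). Part of this change lay in the control mice, in which *Apod* fell by 0.41 on the log2 scale between the days (adjusted p = 0.00842).

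Genes of tip cells and mural cells were called in part. Tip cells lead the growing sprout. Of 13 tip cell genes 5 were called, all higher on P17, with a median effect of 0 on P12 and 0.30 on P17. *Apln*, the ligand of the apelin receptor, was at -0.89 to -0.23 (median -0.72) in OIR mice and -0.83 to -0.01 (median -0.61) in control mice on P12. On P17 it was at -0.10 to 2.02 (median 0.63) in OIR mice and -1.17 to -0.31 (median -0.79) in control mice, so that the groups overlapped on P12 and were apart on P17. Its change was 1.53 (SE 0.186, adjusted p = 1.88e-07). *Esm1*, the proteoglycan endocan, was not well above background in any of the 25 mice of P12. On P17 it was well above background in 1 of 12 control mice and in all 13 OIR mice. Its ratio there was -0.47 to 1.27 (median 0.22) in OIR mice and -2.24 to -0.47 (median -1.18) in control mice, with a change of 1.41 (SE 0.265, adjusted p = 0.00143) for which no fold on P12 can be given. The changes of these dim probes depended on the processing, and lay between 1.25 and 5.54 for *Esm1* and between 1.36 and 4.73 for *Apln* over the alternatives, with the highest values in the deposited ratios. *Pdgfb*, which recruits pericytes, had effects of -0.21 and 0.79 on the days and a change of 1.01 (adjusted p = 6.02e-08).

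Of 14 genes of pericytes and smooth muscle, *Higd1b* and *Abcc9* were called. All 14 had a positive change (median 0.41, against -0.004 over all genes), but signs from the same arrays are not separate observations. *Higd1b*, a marker of pericytes, went from an effect of -0.62 on P12 (SE 0.125, adjusted p = 0.0573) to 0.96 on P17 (SE 0.125, adjusted p = 6.17e-07). It was at 0.07 to 0.81 (median 0.31) and 0.63 to 1.57 (median 0.87) in OIR and control mice on P12, and at 1.24 to 2.44 (median 1.66) and 0.30 to 1.36 (median 0.74) on P17. In 11 of 13 OIR mice it was below all control mice on P12, and in 11 above them on P17. *Abcc9*, a channel subunit of pericytes, had effects of -0.37 and 0.24, neither of them called, and a change of 0.62 (adjusted p = 0.0127) that lay between 0.57 and 2.82 over the alternatives. Among 15 genes of Notch and bone morphogenetic protein signaling 1 was called, the endothelial receptor *Acvrl1*, with effects of -0.18 and 0.33 and a change of 0.51 (adjusted p = 5.34e-06).

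Genes of red cells were also called in part. Of 7 such genes *Hba-a1*, *Hbb-bt* and *Alas2* were called. *Hba-a1*, an alpha-globin gene, was at -0.01 to 1.76 (median 0.71) in OIR mice and 0.88 to 2.20 (median 1.32) in control mice on P12, and at 1.34 to 4.22 (median 3.18) and 0.77 to 1.97 (median 1.74) on P17. Its effect was -0.69 (SE 0.233) and 1.38 (SE 0.233), and the change was 2.08 (SE 0.329, adjusted p = 7.33e-05). *Hba-a2*, outside the list, changed by 2.20 (adjusted p = 9.69e-05), but both genes are nearly identical and their probes may share RNA. *Hbb-bt*, a beta-globin gene, changed by 1.32 (adjusted p = 0.0120), without a call in the deposited ratios. *Alas2*, the heme synthesis enzyme of red cells, was detected above background on P17 in 9 of 13 OIR mice, in 3 of 12 control mice on each day and in no OIR mouse on P12, and its change of 0.30 was close to the threshold (adjusted p = 0.0373). The mean ratio of the 7 genes was 0.03 to 0.45 in OIR mice on P12 and 0.30 to 1.19 on P17, and 0.17 to 0.64 and 0.20 to 0.59 in control mice, and 2 of them were not well above background on any array. The part of blood left in the vessels in the endothelial values was not tested.

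*Tagln2* and *Msn*, of the actin cytoskeleton and in none of the lists, were, with the offset of 50, among the largest called changes that the study does not name. *Tagln2*, the actin-binding protein transgelin 2, was at -3.42 to -2.68 (median -3.05) in OIR mice and -3.10 to -2.21 (median -2.64) in control mice on P12, and at -1.91 to 0.02 (median -0.93) and -3.21 to -2.51 (median -2.98) on P17. Its effect was -0.38 (SE 0.124, unadjusted p = 0.00403) on P12 and 1.96 (SE 0.124) on P17, with a change of 2.34 (SE 0.176, adjusted p = 9.66e-14). *Msn* encodes moesin, which links actin filaments to the cell membrane. It was at -3.04 to -2.04 (median -2.58) and -2.95 to -1.90 (median -2.38) in OIR and control mice on P12, and at -1.29 to -0.23 (median -0.69) and -2.73 to -2.09 (median -2.48) on P17. Its effect was -0.23 (SE 0.135) and then 1.76 (SE 0.135), with a change of 2 (SE 0.191, adjusted p = 3.09e-10). For both genes the groups overlapped on P12, and all 13 OIR mice were above the control mice on P17.

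Genes of the basement membrane and collagens mostly had an effect called on P17 alone. Of 20 genes 10 were called, all higher on P17. Of these, *Fn1* was also called on P12, and the other 9 had an unadjusted p of 0.05 or more there. The median effect was 0.01 on P12 and 0.73 on P17. The called genes were *Col4a1*, *Col4a2*, *Lamc1* and *Nid1* of the vascular basement membrane, the matrix proteins *Fn1* and *Sparc*, the enzymes and chaperones of collagen *Pcolce*, *Loxl2* and *Serpinh1*, and *Cd248*, a receptor of perivascular cells. The mean ratio of the list was -2.73 to -1.55 in OIR mice and -2.49 to -1.72 in control mice on P12, and -1.74 to -1 and -2.77 to -1.42 on P17.

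*Pcolce*, which enhances the cleavage of procollagen, was a called gene of this list. It was at -5.02 to -3.43 (median -4.50) in OIR mice and -5.60 to -3.85 (median -4.34) in control mice on P12, and at -2.44 to -0.19 (median -1.39) and -4.72 to -3.56 (median -3.99) on P17. The groups overlapped on P12 and were apart on P17. Its effect was 0.09 (SE 0.201, adjusted p = 1) and then 2.76 (SE 0.201, adjusted p = 2.37e-14), with a change of 2.67 (SE 0.284, adjusted p = 5.59e-09). *Bmp1*, the procollagen protease that *Pcolce* assists, was in no list. It had effects of 0.06 and 0.95 and a change of 0.89 (adjusted p = 7.29e-07), and it fell by 0.39 on the log2 scale in control mice while it rose by 0.50 in OIR mice.

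*Cd248* was at -2.74 to -1.08 (median -2.02) and -1.92 to -1.39 (median -1.66) on P12, and at -0.67 to 0.60 (median 0.08) and -2.64 to -0.96 (median -2.02) on P17, in OIR and control mice. All 13 OIR mice were above the control mice on P17. On P12 the spread of the OIR mice was wide and 7 of them were below all control mice, and with an unadjusted p of 0.056 the effect of -0.32 just missed the group with opposite signs. The change was 2.29 (SE 0.228, adjusted p = 1.11e-09).

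**Figure D3:**
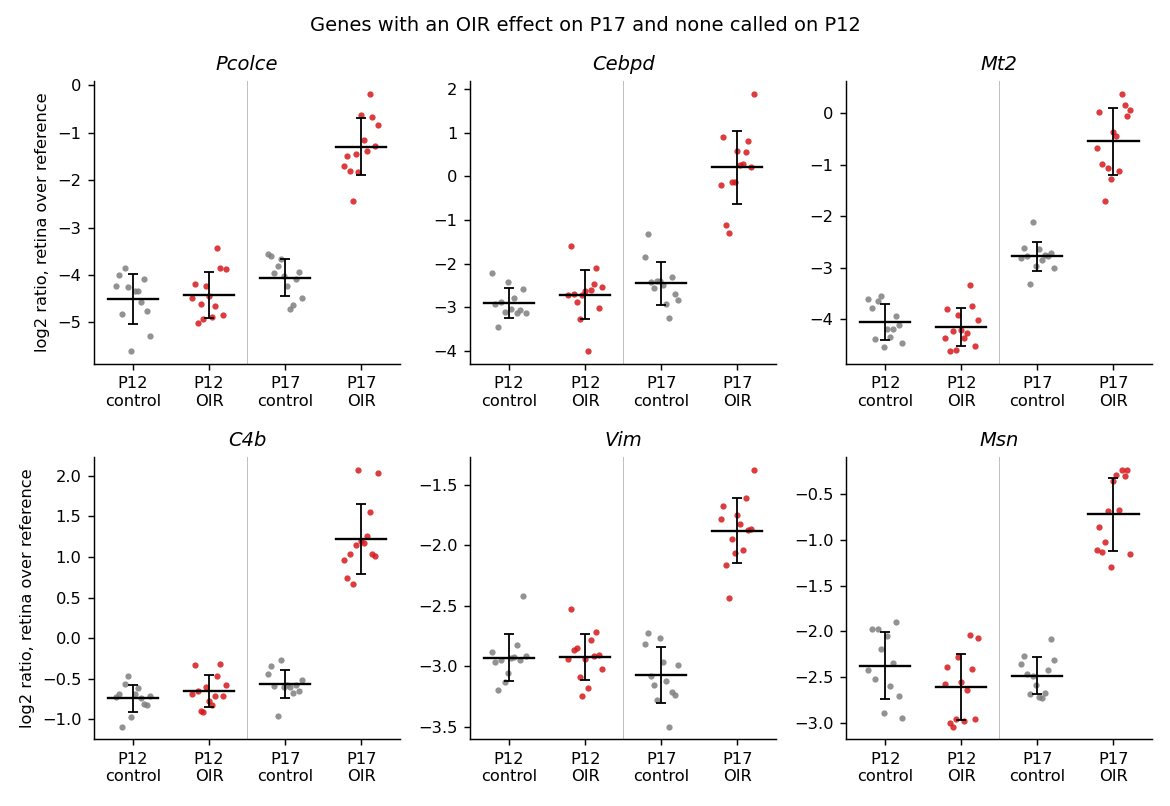
Each point is 1 mouse, with the log2 ratio of retina over reference on the vertical axis, lines for the group means and bars for the SD (12 control and 13 OIR mice per day). In all 6 genes OIR and control mice overlap on P12 and all 13 OIR mice lie above the control mice on P17, and for *Mt2* the control mice also rise from P12 to P17.

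Some genes of gp130-STAT3 signaling and of reactive glia also had an effect called on P17 alone. Of 14 genes of gp130-STAT3 signaling and the acute phase 5 were called, all of them with an effect called on P17 alone. They were *Cebpd*, *Edn2*, *Bcl3*, *Stat3* and *Fgf2*. *Fgf2* was well above background on only 2 arrays. Its change of 0.118 (SE 0.025, adjusted p = 0.00671) is therefore mostly a description of the background. The median effect of the list was 0.11 on P12 and 0.85 on P17. The mean ratio of the list was -2.08 to -0.92 (median -1.39) in OIR mice and -2.05 to -1.26 (median -1.48) in control mice on P12, and -1 to -0.20 (median -0.57) and -2.00 to -0.86 (median -1.44) on P17.

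*Cebpd*, a transcription factor induced by STAT3, was at -4 to -1.59 (median -2.70) in OIR mice and -3.44 to -2.22 (median -2.97) in control mice on P12. On P17 it was at -1.31 to 1.89 (median 0.26) and -3.25 to -1.33 (median -2.46). The groups were apart on P17 by a narrow gap. The effect was 0.18 (SE 0.234) on P12 and 2.65 (SE 0.234) on P17, and the change 2.47 (SE 0.331, adjusted p = 1.96e-06). *Stat3* had effects of 0.05 and 1.51 (adjusted p = 1 and 8.20e-12). *Bcl3*, a coactivator of NF-kappaB, had a change of 1.56 (SE 0.304, adjusted p = 0.00247), between 1.33 and 4.44 over the alternatives, and stood well above background on P12 in 2 mice of each condition, and on P17 in all 13 OIR and 4 of 12 control mice. *Edn2*, which encodes the peptide endothelin 2 of stressed photoreceptors, was not well above background in any mouse on P12. On P17 it was well above background in 3 of 12 control mice and in all 13 OIR mice. Its ratio on P17 was 0.58 to 2.83 (median 1.71) in OIR mice against -0.10 to 1.19 (median 0.02) in control mice. *Socs3* and *Osmr* of this list had effects of 0.86 and 0.84 on P17, but their changes of 0.68 and 0.75 were not called (adjusted p = 0.327 and 0.315).

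Of 13 genes of reactive glia 6 were called, *Gfap*, *Vim*, *Nes*, *S100a6*, *Cp* and *S1pr3*, again with an effect called on P17 alone. The median effect was 0.01 on P12 and 0.41 on P17. *Vim*, an intermediate filament protein, was at -3.24 to -2.53 (median -2.92) in OIR mice and -3.20 to -2.42 (median -2.94) in control mice on P12, and at -2.44 to -1.38 (median -1.87) and -3.50 to -2.73 (median -3.10) on P17. All OIR mice lay above all control mice on P17, and the groups were intermingled on P12. The P12 effect was 0.01 (SE 0.0877), the P17 effect 1.19 (SE 0.0877) and the change 1.19 (SE 0.124, adjusted p = 3.91e-09). *Nes*, the filament protein nestin, changed by 1.65 (SE 0.206, adjusted p = 3.56e-07), *S100a6*, a calcium-binding protein, by 1.82 (SE 0.300, adjusted p = 0.000162) and *Gfap* by 0.94 (SE 0.124, adjusted p = 1.39e-06). The 10 genes of resting Mueller glia held no called gene, and their median effect was -0.17 on P12 and -0.36 on P17.

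Metallothioneins bind zinc and copper and respond to metals and stress. Of 9 genes of metal handling *Mt1* and *Mt2* were called. *Mt2* was at -4.62 to -3.35 (median -4.22) in OIR mice and -4.54 to -3.55 (median -4.15) in control mice on P12, and at -1.71 to 0.38 (median -0.45) and -3.31 to -2.10 (median -2.78) on P17. It was higher on P17 in both conditions. The rise between the days was 1.29 in control mice (adjusted p = 3.66e-06) and 3.62 in OIR mice (adjusted p = 7.22e-22), and the difference of these rises, which is the change in the OIR effect, was 2.33 (SE 0.246, adjusted p = 5.24e-09). For *Mt1* the rises were 1.14 and 2.71, and the change was 1.57 (SE 0.184, adjusted p = 6.63e-08).

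The remaining stress and immune lists each held 1 or 2 called genes or none. In the integrated stress response *Nupr1* and *Atf5* were called among 16 genes, with changes of 1.61 (SE 0.280, adjusted p = 0.000429) and 0.86 (SE 0.133, adjusted p = 4.56e-05). Of 12 immediate early genes *Nr4a1*, an orphan nuclear receptor, was called with a change of 0.86 (adjusted p = 0.00169). The complement list of 13 genes held *C4b*, which was at -0.91 to -0.31 (median -0.69) in OIR mice and -1.09 to -0.47 (median -0.71) in control mice on P12, and at 0.66 to 2.07 (median 1.14) and -0.96 to -0.27 (median -0.58) on P17. All OIR mice were above all control mice on P17. Its change was 1.70 (SE 0.150, adjusted p = 2.46e-11). The mouse genome holds a close copy of this gene, *C4a*, and the probe may read both. *H2-Ab1*, a chain of the major histocompatibility complex class II, was the called gene among 13 of antigen presentation, with effects of 0.10 and 0.92 and a change of 0.82 (SE 0.0971, adjusted p = 9.49e-08). Of 16 genes of microglia and macrophages and 12 of the interferon response none was called, although 4 microglial genes were higher in OIR mice on P17, and the median changes were 0.27 and 0.08.

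Some glycolysis and other hypoxia response genes had opposite signs on the days, but none of either list was called on P12. Of 19 glycolysis genes 4 were called, all higher on P17. *Pfkp* and *Slc16a3* had opposite signs on the days. Their P12 effects of -0.35 and -0.32 rest on unadjusted p-values only (0.0114 and 0.00406, limma). *Pfkl* and *Gpi1* had an effect called on P17 alone. The median effect of the list was -0.11 on P12 and 0.23 on P17. *Slc16a3*, the lactate exporter MCT4, was at -1.54 to -0.44 (median -0.80) in OIR mice and -0.92 to -0.16 (median -0.60) in control mice on P12, and at 0.69 to 2.08 (median 1.61) and 0.08 to 0.69 (median 0.34) on P17. The retina of control mice thus also had more of it on P17, by 0.90 (adjusted p = 2.47e-07), and that of OIR mice by 2.39. The change in the OIR effect was 1.49 (SE 0.152, adjusted p = 2.03e-09), and a second probe for the gene was called with the same sign. *Pfkp* and *Pfkl*, the phosphofructokinase subunits, changed by 1.52 (SE 0.185, adjusted p = 1.88e-07) and 0.95 (SE 0.186, adjusted p = 0.00275).

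Among 18 other hypoxia response genes *Ndufa4l2*, *Vegfa*, *Bnip3*, *Higd1a* and *Ankrd37* were called. *Ndufa4l2*, a mitochondrial protein that lowers complex I activity, was at -0.02 to 0.84 (median 0.32) in OIR mice and 0.47 to 1.21 (median 0.78) in control mice on P12, and at 2.09 to 3.05 (median 2.55) and 0.09 to 0.75 (median 0.55) on P17. The effect was -0.47 (SE 0.0963, adjusted p = 0.0687) and then 2.03 (SE 0.0963, adjusted p = 5.10e-21), and the change 2.51 (SE 0.136, adjusted p = 1.72e-18). The reference color of the same probe also gave a change, of 0.79, and its part in this value was not tested. *Vegfa* was at -1.06 to -0.19 (median -0.62) and -0.99 to -0.09 (median -0.34) in OIR and control mice on P12, and at 0.25 to 0.82 (median 0.53) and -0.73 to -0.19 (median -0.40) on P17. All OIR mice were above the control mice on P17, with a change of 1.18 (SE 0.121, adjusted p = 2.20e-09). *Bnip3*, a receptor for mitophagy, changed by 0.89 (SE 0.185, adjusted p = 0.00594), a change not called in the retina color alone, and rose between the days in control mice as well, by 0.62 (adjusted p = 0.00540). *Adm*, which encodes adrenomedullin and was singled out after its values were seen, had an effect of 1.31 on P17, but its change of 1.10 was not called (SE 0.305, adjusted p = 0.133).

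Hypoxia-inducible factors bind DNA at a core of ACGTG. The core was found on either strand in 24.4% of 168 RefSeq promoter windows (300 bases around each gene start, GRCm38.p6) of the called genes with a higher effect on P17, against 21.5% of the 20464 windows of all genes on the array with a window. Among the called hypoxia response genes outside glycolysis, 4 of 5 windows held it, and among the called glycolysis genes 1 of 4. The 5 windows were of 4 genes, since *Ndufa4l2* had no window. *Vegfa* had a window with the core and another without it. Windows of the genes of these lists that were not called were not counted. Windows without the core, such as those of *Pfkp* and *Pfkl*, are not shown. The windows of *Slc16a3*, *Bnip3* and *Ankrd37*, which each had a higher effect on P17, are shown with the core in capitals, in *Bnip3* as a palindrome read on both strands.
Slc16a3, chr11:120948817-120949116, plus strand: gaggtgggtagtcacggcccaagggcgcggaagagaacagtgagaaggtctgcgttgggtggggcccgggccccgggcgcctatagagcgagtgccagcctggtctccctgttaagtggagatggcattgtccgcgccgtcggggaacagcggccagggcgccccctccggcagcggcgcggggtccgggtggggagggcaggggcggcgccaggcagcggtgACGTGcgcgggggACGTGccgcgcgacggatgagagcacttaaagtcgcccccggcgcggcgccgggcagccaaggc
Bnip3, chr7:138909457-138909756, minus strand: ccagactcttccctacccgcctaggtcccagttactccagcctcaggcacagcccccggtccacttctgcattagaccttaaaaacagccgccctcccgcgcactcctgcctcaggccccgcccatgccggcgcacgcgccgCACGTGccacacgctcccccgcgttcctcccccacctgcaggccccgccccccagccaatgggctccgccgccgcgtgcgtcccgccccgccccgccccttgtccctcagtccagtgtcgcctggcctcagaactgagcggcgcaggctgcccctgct
Ankrd37, chr8:45999801-46000100, minus strand: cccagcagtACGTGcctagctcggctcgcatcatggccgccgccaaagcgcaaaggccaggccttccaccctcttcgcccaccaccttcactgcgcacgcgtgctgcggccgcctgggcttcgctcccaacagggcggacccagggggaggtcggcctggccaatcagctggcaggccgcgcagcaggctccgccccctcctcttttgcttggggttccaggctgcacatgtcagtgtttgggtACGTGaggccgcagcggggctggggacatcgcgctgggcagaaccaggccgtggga

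The metal response core was searched in a loose spelling, TGCNCNC, in which N is any base. This spelling is short and was common, in 60.1% of the windows of genes with a higher effect on P17 and 55.3% of all windows. A stricter spelling was not counted. The window of *Mt2*, the metallothionein with the larger change, held 6 matches, which are in capitals, and that of *Mt1* held 3.
Mt2, chr8:94172368-94172667, plus strand: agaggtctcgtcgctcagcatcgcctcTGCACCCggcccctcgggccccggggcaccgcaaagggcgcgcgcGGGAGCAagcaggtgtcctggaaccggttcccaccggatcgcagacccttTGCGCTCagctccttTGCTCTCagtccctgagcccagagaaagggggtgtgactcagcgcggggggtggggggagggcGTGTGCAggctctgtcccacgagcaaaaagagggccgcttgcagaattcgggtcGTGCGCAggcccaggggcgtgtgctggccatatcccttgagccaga
The STAT motif TTCNNNGAA was found in 6.55% against 7.84% of all windows and the ETS core CCGGAA in 13.1% against 19.1%. A match is only a match of letters, and a window without one says nothing of the factor.

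Changes toward a lower effect on P17 were few. *Spc25*, a subunit of the Ndc80 complex of the kinetochore, was at -0.56 to 0.63 (median 0.16) in OIR mice and -0.25 to 1.36 (median 0.35) in control mice on P12. On P17 it was at -0.84 to 0.59 (median 0) in OIR mice and 1.22 to 2.18 (median 1.49) in control mice, and all 13 OIR mice were below the control mice. The change of -1.35 (SE 0.228, adjusted p = 0.000230) went with a rise of 1.20 in control mice (adjusted p = 3.40e-06), while OIR mice differed by -0.16 (adjusted p = 0.876). The other 3 genes of the complex were not called, and of 18 genes of cell division none was, with a median change of 0.07.

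*Enpp2*, which encodes autotaxin, the enzyme that makes lysophosphatidic acid, was, with the offset of 50, the called gene with the largest decrease not named in the study. It was at -0.41 to 0.52 (median -0.05) in OIR mice and -0.49 to 0.42 (median -0.09) in control mice on P12, and at -0.75 to 0.36 (median -0.28) and 0.21 to 1.34 (median 0.47) on P17. In 12 of 13 OIR mice it was below all control mice on P17. The change was -0.87 (SE 0.174, adjusted p = 0.00370), and the control mice rose by 0.69 (adjusted p = 0.000508). The pigment epithelium also expresses this gene. Of the 9 listed pigment epithelium genes none was called for the change, with a median of -0.12, and their mean ratio on P17 was 0.22 to 0.85 (median 0.35) in OIR mice and 0.26 to 1.18 (median 0.67) in control mice. *Rpe65* of that list changed by -0.72 (adjusted p = 0.411). Its part in the difference of *Enpp2* was not tested.

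*Rgs3*, a regulator of G protein signaling, and *Zfp467* and *Tsc22d3*, both regulators of transcription, followed the pattern of *Spc25*, with a rise in control mice that OIR mice did not show. *Rgs3* was at -0.53 to -0.09 (median -0.37) in OIR mice and -0.06 to 0.23 (median 0.10) in control mice on P17, without overlap. It rose by 0.49 in control mice (adjusted p = 1.60e-05) and differed by 0.06 in OIR mice (adjusted p = 0.922), and its change was -0.43 (SE 0.101, adjusted p = 0.0251), but neither of 2 other probes for it had the same sign. The changes of *Zfp467* and *Tsc22d3* were -0.59 (adjusted p = 0.0333) and -0.46 (adjusted p = 0.0479), and neither was called with sex as a covariate.

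*Nsg1*, *Ndufs1*, *Ndufb3* and *Gfra2* instead fell in OIR mice between the days. *Nsg1*, a neuronal protein of endosomes, was at 1.15 to 1.86 (median 1.54) in OIR mice on P17 and between 1.61 and 2.75 in the mice of the other groups, with a change of -0.65 (SE 0.151, adjusted p = 0.0225) and a decrease in OIR mice (log2 difference -0.65, adjusted p = 2.05e-05). *Ndufs1* and *Ndufb3*, subunits of complex I of the respiratory chain, had changes of -0.37 (adjusted p = 0.0342) and -0.39 (adjusted p = 0.0479) and differed by -0.34 and -0.38 between P17 and P12 in OIR mice. The changes of *Nsg1*, *Ndufs1* and *Ndufb3* were not called with sex as a covariate. *Ndufb3* also lost its call in 35 of the fits without 1 array, and *Ndufs1* in 19. *Gfra2*, the receptor of neurturin, changed by -0.37 (SE 0.0821, adjusted p = 0.0135), with 0.35 to 0.79 in OIR mice and 0.61 to 1.18 in control mice on P17. *Ebf1*, a transcription factor, changed by -0.32 (adjusted p = 0.0180), with differences of -0.16 in OIR mice and 0.16 in control mice between the days, neither of them called, and all 13 OIR mice were below the control mice on P17. *Olfr591* was not well above background on any array, and its change of -0.12 is a description of the background. Outside the 12 genes, *Cck*, the neuropeptide cholecystokinin, had an effect of -1.09 on P17 and a change of -0.91 that was not called (adjusted p = 0.0809), and it was singled out after its values were seen.

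**Figure D4:**
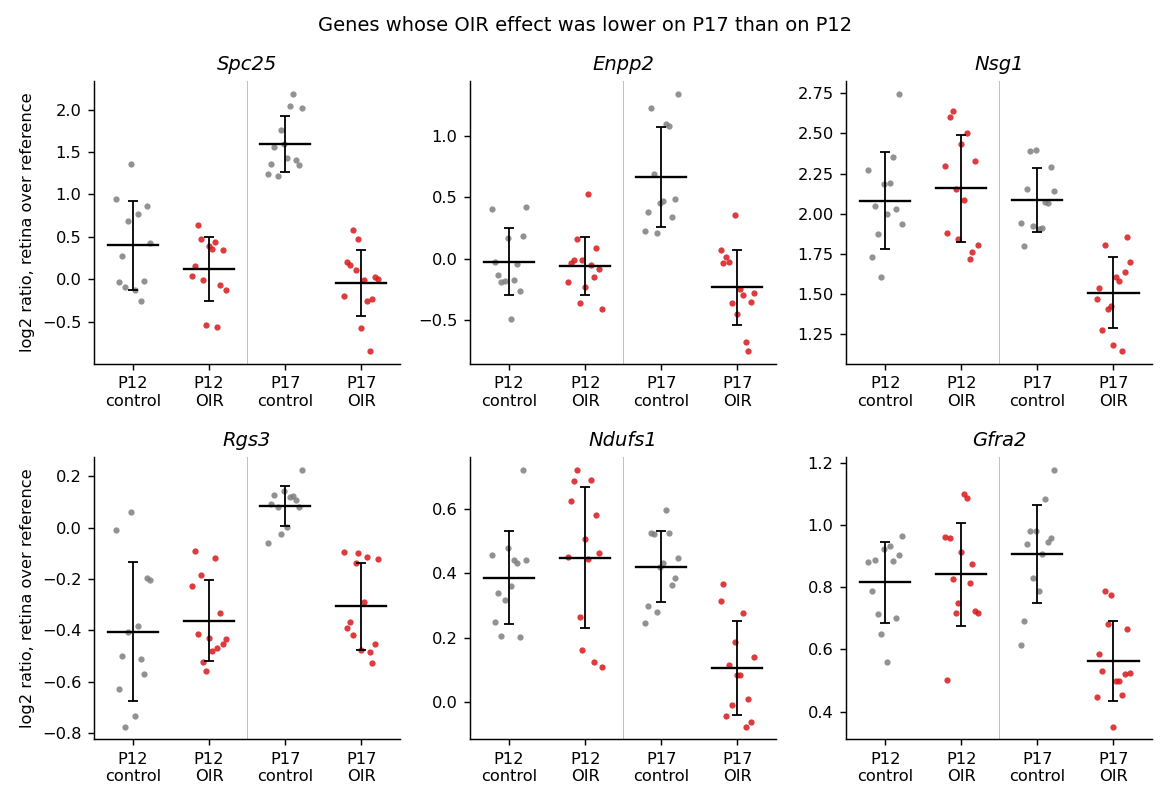
Each point is 1 mouse, with the log2 ratio of retina over reference on the vertical axis, lines for the group means and bars for the SD (12 control and 13 OIR mice per day). The mean of the P17 control mice stands above the other means for *Spc25*, *Enpp2* and *Rgs3*, and the mean of the P17 OIR mice stands below the other means for *Nsg1*, *Ndufs1* and *Gfra2*.

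No gene of the neuronal lists was called for a change. With 0.879% of all genes called higher and 0.0567% lower, few calls would be found in lists of this size in any case. The lists were those of rods (17 genes), cones (10), bipolar cells (15), amacrine cells (12), horizontal cells (5) and ganglion cells (12), of 12 neuropeptides, of 18 receptors of GABA, glycine and glutamate and of 16 voltage-gated channels, and the 13 clock genes held no call either. Outside the lists, *Nsg1* was called as given above, and so was *Rgs11*, a regulator of G protein signaling in ON bipolar cells that was singled out after its values were seen, with a change of 0.95 (adjusted p = 0.00998). The direction was nonetheless often shared. The members of a list come from the same arrays, so their signs are not separate observations, and the shared direction was not tested. The median change over all genes was -0.004. All 18 receptor genes had a negative change, with a median of -0.14, and a negative effect on P17. Of these, 17 also had a negative effect on P12, with a median over the list of -0.09. The median change was -0.28 over the ganglion cell genes and -0.20 over the bipolar cell genes, and 0.17 over the rod genes. In the same order, the median effect on P12 was -0.11, -0.13 and -0.06. The 19 genes of cholesterol synthesis had a negative change without exception (median -0.18), with a median effect of 0.10 on P12 and -0.11 on P17, and none of these was called. The lowest adjusted p among them was 0.0796, for *Idi1*, with a change of -0.44.

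**Figure D5:**
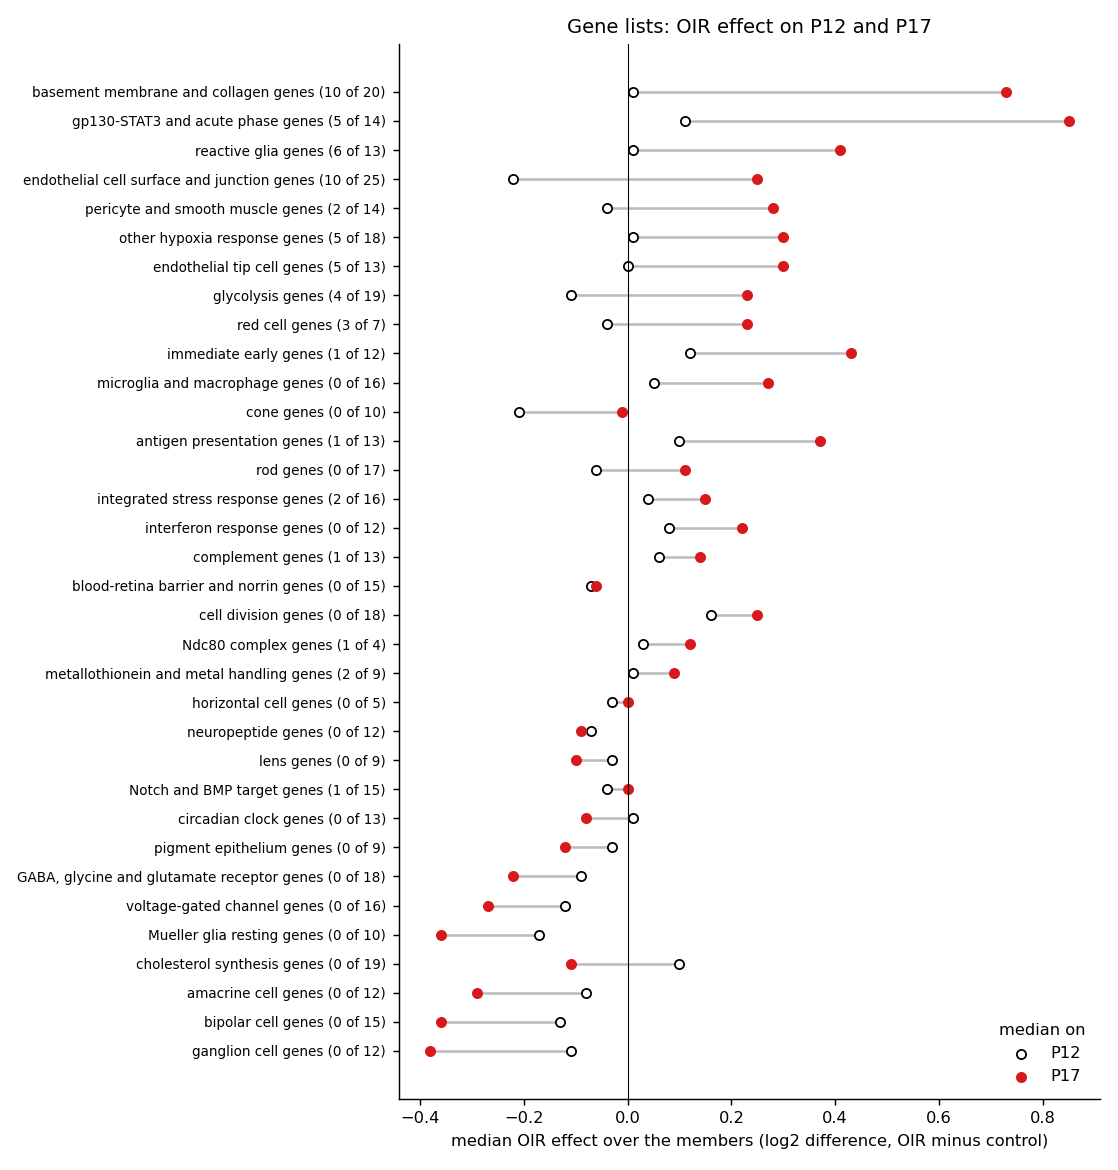
For each of 34 gene lists the open circle gives the median OIR effect over its members on P12 and the filled circle that on P17, as log2 differences of OIR minus control mice, and the numbers count the members called for a change. The endothelial list goes from -0.22 to 0.25, while the lists of basement membrane, gp130-STAT3 and reactive glia genes start near zero or slightly above it on P12.

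The arrays were similar in quality between the groups. The retina color was well above background for 13764 to 29993 probes of an array, with group medians of 20045 and 21095 in OIR and control mice on P12 and 20283 and 20843 on P17. The number of arrays limits the precision. The mean ratio of the rod genes was 3.24 or more on every array. That of the lens genes had group medians of 0.05 to 0.10 but was higher on single arrays. It reached 0.57 and 0.76 in OIR and control mice on P12, and 0.74 and 1.03 on P17. Of the mice, 8 of 13, 5 of 12, 4 of 13 and 6 of 12 were female in the order P12 OIR, P12 control, P17 OIR and P17 control, as read from *Xist* and Y-linked genes. The change in the OIR effect was not called as different between the sexes for any probe (limma; 2149 probes had an unadjusted p below 0.05). The arrays of 1 P12 control mouse and 1 P17 OIR mouse, both on the same slide, correlated least with their groups, with median r of 0.779 and 0.828 against up to 0.973. Without these arrays 86.9% of the called probes were still called, 0.0395% of the probes tested had a lower effect on P17, and the same 6 genes had opposite signs.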

How the data were processed

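Scanner files and ratios were used. Per the file headers, the authors extracted median intensity values and local backgrounds for each spot with Agilent Feature Extraction 10.7.3.1. The deposited log2 ratios are those of the processed Cy3 over the processed Cy5 signal (equal within 0.001 for all single-spot probes). GeneSpring GX was used for normalization by the study's methods.

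The median intensity values were corrected with normexp (offset 50) in limma 3.58.1 (R 4.3.3), normalized by loess within each array, and turned to retina over reference. Outlier spots, 0.330 to 0.582% per array, were left out and spots of a probe averaged. A model was fitted to the 55681 probes without controls, with 4 group means, with the moderated statistic of limma and Benjamini-Hochberg adjustment. Standard errors are those of the fit. Symbols came from accessions matched to the RefSeq table of GRCm38.p6, which named 28026 probes for 21154 genes. Promoter sequences are from RefSeq (GRCm38.p6), for 16756 of these genes. The model was tested on simulated data.

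Genes named with values were all genes called in opposite directions, the 12 largest increases and 10 largest decreases not named in the study, and up to 3 called members of largest change per list. *Xist* and Y-linked genes were left out, and other genes with values were chosen after their values were seen. The members and the 34 lists were chosen with earlier results of these data known. No array was excluded. The replicates are separate mice. The alternatives were the deposited ratios, an offset of 0, no background subtraction, the retina color alone, slide as a block, array weights, trend and robust estimation, a filter on dim probes, all 77 arrays, sex as a covariate and leaving out each array. The restriction to slides with all 4 groups and the removal of 2 arrays were chosen after seeing the data.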

Additional observations from a re-analysis of the deposited data

Results flagged for a closer look

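The OIR effect differed between P12 and P17 by the test of the difference itself for 222 probes with a higher and 14 with a lower effect on P17, as given above (limma, Benjamini-Hochberg over all probes).

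The reference color holds the same RNA on every array and was tested alone, with quantile normalization, for the same change. Of 55681 probes 1 was called, that of *Ndufa4l2*, with a change of 0.79 on the log2 scale (adjusted p = 3.25e-06), and 1803 had an unadjusted p below 0.05. The retina ratio of this gene changed by 2.51 in the same direction, although a higher reference lowers the ratio. The part of this signal in the values of *Ndufa4l2* was not tested.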

How the results depend on the processing

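Of the probes tested, 222 had a higher OIR effect on P17 and 6 were called with opposite signs on both days. As percent of the 55681 probes, 0.0251% had a lower effect on P17, 0.302% an effect called on P17 alone, and 0.0611% and 0.383% were called and changed in control and in OIR mice between the days. In the same order these values were 572, 29, 0.11, 0.704, 0.194 and 1.02% with the deposited log2 ratios, 586, 34, 0.246, 0.921, 0.268 and 1.15% in the retina color alone, 399, 13, 0.088, 0.555, 0.158 and 0.709% with the slide as a block, and 454, 14, 0.102, 0.614, 0.192 and 0.817% on the 41 arrays of slides with all 4 groups with the slide as a block. With an offset of 0, 435 probes were higher and 18 opposite, and 0.539, 0.104 and 0.758% were on P17 alone, changed in control mice and changed in OIR mice. Without background subtraction 0.0395% were lower, 11 probes were opposite and 0.104% changed in control mice. Array weights gave 357 higher probes, 0.194% lower, 0.485% on P17 alone, and 0.185 and 0.691% changed in control and OIR mice, so that 76.8% of the calls were higher, against 81.1% in the retina color alone and 88.8 to 97.3% in the other settings. The lower effect held for 0.0431% of the probes with all 77 arrays, 0.0108% with sex as a covariate and 0.0395% without the 2 arrays least like their groups. Values not given stayed within 1.5 times those reported, and all were so with trend and robust estimation or with the filter on dim probes (24238 probes). The cause of these differences was not tested.

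When each array was left out in turn, these values ranged from 203 to 239, 4 to 8, 0.0144 to 0.0449%, 0.264 to 0.338%, 0.0467 to 0.0808% and 0.347 to 0.409%. The share with a lower effect moved by over 1.5 times without each of 12 arrays, with 0.0144% without P12 control mouse 200 and 0.0449% without the P12 control mouse least like its group. The 6 genes with opposite signs kept that pattern in 10 of the 12 other alternatives, and 5 of them did with trend and robust estimation and with sex as a covariate. They all kept it without 31 of the arrays, 5 did without each of 15, and 4 did without each of 4, which were from 2 P12 OIR and 2 P12 control mice, among them the one least like its group. The 50 named genes kept their direction in each alternative, except that *Olfr591* was not tested under the filter on dim probes. *Ndufb3* lost its call in 8 of these, *Tsc22d3* in 6, *Olfr591* in 5, *Ndufs1* in 4, *Alas2* in 3, *Nsg1* in 2, and *Zfp467*, *Rgs3*, *Ebf1*, *Bnip3* and *Hbb-bt* in 1 each. With sex as a covariate the calls of *Nsg1*, *Zfp467*, *Tsc22d3*, *Ndufb3*, *Ndufs1* and *Alas2* were lost. Of the fits without 1 array, *Tsc22d3* lost its call in 36, *Ndufb3* in 35, *Alas2* in 22, and *Zfp467* and *Ndufs1* in 19 each, and no other named gene did. The change moved by over 1.5 times in some alternative for 19 named genes, 17 of them in the deposited ratios and 16 with an offset of 0. A second probe had the same sign without a call for *Cd34*, *Plxnd1*, *Tagln2*, *Pfkp*, *Mt1* and *Pdgfb*, as did 3 further probes of *Zfp467*. It was called with the same sign for *Slc16a3*, *Vegfa* and *H2-Ab1*, and so was 1 of 2 further probes of *Bnip3*. No paired analysis was possible because every array carries a different mouse number. Dim probes are limited by their signal over background, and the offset draws their differences toward zero.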

Other observations

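Genes of core histones, grouped by symbol after their values were seen, did not move alike. Of 11 genes for histone H2A with a symbol starting with H2ac, 8 were higher on P17 in their OIR effect (*H2ac10*, *H2ac11*, *H2ac12*, *H2ac15*, *H2ac19*, *H2ac20*, *H2ac22* and *H2ac23*), with changes between 0.69 and 1.10. The median effect over the 11 genes was -0.12 on P12 and 0.76 on P17. *H2ac22* was at -4.02 to -2.69 (median -3.28) in OIR mice and -3.78 to -2.71 (median -3.25) in control mice on P12, and at -3.12 to -2.19 (median -2.51) and -4.05 to -3.34 (median -3.54) on P17. None of 9 H2bc, 7 H3c, 8 H4c and 8 H1f genes was called, and their median changes lay between -0.04 and 0.07. The H2ac genes are nearly identical in sequence, so that their probes may read the same RNA and are not 8 separate measurements. Of the 18 genes of cell division, none was called.

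Further genes of the actin cytoskeleton beside *Tagln2* and *Msn* were also called, and were likewise chosen after their values were seen. *Flna*, the actin crosslinker filamin A, had effects of -0.18 on P12 and 1.02 on P17, with -1.91 to -0.89 in OIR mice and -2.67 to -2.24 in control mice on P17, and a change of 1.19 (SE 0.136, adjusted p = 3.52e-08). *Myh9*, the heavy chain of non-muscle myosin, had effects of -0.21 and 1.07 and a change of 1.28 (SE 0.260, adjusted p = 0.00461). *Csrp1*, a LIM protein that binds actin filaments, changed by 0.87 (SE 0.165, adjusted p = 0.00175) and also rose in control mice between the days, by 0.56 (adjusted p = 0.00391).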
